A study of Homo sapiens with 4 samples.

Results

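The 9 genes described here, IER2, IER3, IER5, MCL1, ZFP36, GADD45B, MAFF, RHOB and PLK3, belong to the labile early genes. They were taken by symbol from the sense-strand entries of 57428 genes in nascent RNA tables of U2OS cells, a human osteosarcoma line, and all 9 were among the 21238 genes with enough counts to be tested. Nascent RNA was measured by Bru-seq, in which cells take up bromouridine and an antibody pulls down the RNA made while the label was present. Both groups were cells that stably overexpress GFP-DCP1a, a fluorescent fusion of an mRNA decapping cofactor, kept under G418 selection and labelled with 2 mM bromouridine for 30 min, with RNA taken at once. The groups, of 2 libraries each, were cells in hypertonic medium brought to 300 mM sodium with concentrated PBS, and cells in isotonic medium at 150 mM, mock supplemented with an equal volume of ordinary PBS. The length of the hypertonic exposure, whether the line is a single clone and whether replicates came from separate cultures are not given in the sources used here, so a p-value here reflects how these 4 libraries scatter, which may be technical variation.

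Early response genes are switched on within minutes of a growth factor or stress signal by transcription factors that are already present, and need no new protein for it. Many of their mRNAs carry AU-rich elements in the 3′ untranslated region and decay fast, so their level follows transcription closely. The products described here act as transcriptional regulators (IER2, IER5, MAFF), as survival and stress signalling proteins (IER3, MCL1, GADD45B, PLK3), as an RNA decay factor that itself binds AU-rich elements (ZFP36) and as a short-lived GTPase (RHOB).

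Deposited counts summed to 23048409 to 44888307 per library. Of the bone and mesenchyme markers checked, VIM (13.8 to 31.3 RPKM), SPARC (1.98 to 4.71), COL1A1 (1.67 to 5.82) and RUNX2 (0.293 to 0.808) gave signal, while ALPL reached at most 0.0118 RPKM, COL1A2 at most 0.00202 and TWIST1 was at 0. The epithelial markers EPCAM, CDH1 and KRT5 stayed at or under 0.212 RPKM and KRT18 lay at 1.29 to 3.71. The blood markers PTPRC, CD3E and HBB stayed at or under 0.0394. In CPM, 1 epithelial marker (KRT18) of 3 tested and the 1 blood marker tested (PTPRC) had both hypertonic libraries above both isotonic ones, and their part in the results below was not tested. RPKM is the count per kilobase of the gene entry scaled to library depth, and is used here to compare genes. CPM is the count scaled to library depth with TMM factors and is used to compare libraries. In such bulk libraries, fewer cells making an RNA and less RNA made per cell cannot be told apart.

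AU-rich pentamers (ATTTA in the DNA letters of GENCODE 29) were present in the 3′ untranslated regions of 7 of the 9 genes. They are shown because fast decay of early mRNAs is known to run through such elements. Each is given as the 30-base window, in 1 transcript per gene, with the most copies of TTATTTATT and then of ATTTA. Each pentamer is in capitals.
IER5, chr1:181092446-181092475, plus strand: tcttcctttATTTATTTATTTATTTAatta
IER3, chr6:30743650-30743679, minus strand: cctaattaatATTTAtatgtATTTAtgtac
MAFF, chr22:38216398-38216427, plus strand: cccggctcctagaATTTATTTAtttcctga
ZFP36, chr19:39409185-39409214, plus strand: ggccctttATTTAtgacgactttATTTAtt
PLK3, chr1:44805907-44805936, plus strand: cttttATTTAttgtcagacacttATTTAtt
MCL1, chr1:150576219-150576248, minus strand: ttgacctaATTTAactggtgaaATTTAaag
RHOB, chr2:20448866-20448895, plus strand: ctgatgttatttgATTTATTTAaaggctaa
The coordinates are on GRCh38 and all 7 windows lie in exons. IER5 and MCL1 held 10 pentamers each, and 26.2% and 22.6% of 3′ untranslated regions within 20% of their lengths held as many. IER3 held 6 in 737 bases, a number that 2.85% of regions of like length reached. ZFP36 held 5 in 713 bases (5.45% of regions of like length) and PLK3 held 3 in 312 bases (4.64%). MAFF and RHOB held 4 each (42.5% and 35.0% of regions of like length). The longer motif TTATTTATT, which contains the pentamer, occurred in IER5, MAFF, PLK3 and ZFP36. GADD45B and IER2 held no pentamer in the transcripts used, which says only that these letters are not there.

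The 9 genes were short and mostly at the upper end of nascent RNA levels. Their median entry length was 4188 bases, against 31211 for all protein-coding genes tested, of which 8.79% were shorter than that. By the mean of the isotonic libraries the order was MCL1, IER3, RHOB, IER2, IER5, GADD45B, MAFF, ZFP36 and PLK3. MCL1 measured 23.0 and 111 RPKM in isotonic replicates 1 and 2 and stood at percentile 99.9 of protein-coding genes tested. PLK3, at the bottom, measured 0.713 and 1.46 RPKM and stood at percentile 68.6. The other 7 lay at percentiles 85.1 (ZFP36) to 99.8 (IER3). Of the 8 pairs of neighbours in this order, 7 had overlapping isotonic ranges, so the ranges do not resolve their order. The exception was IER3 (14.6 and 46.4 RPKM) over RHOB (8.47 and 13.6 RPKM). Compared within each isotonic library, MCL1 lay above IER3, IER5 above GADD45B, MAFF above ZFP36 and ZFP36 above PLK3. IER5 and GADD45B were close in replicate 1, at 5.23 and 5.20 RPKM. The order of RHOB and IER2, of IER2 and IER5, and of GADD45B and MAFF differed between the libraries.

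**Figure D1:**
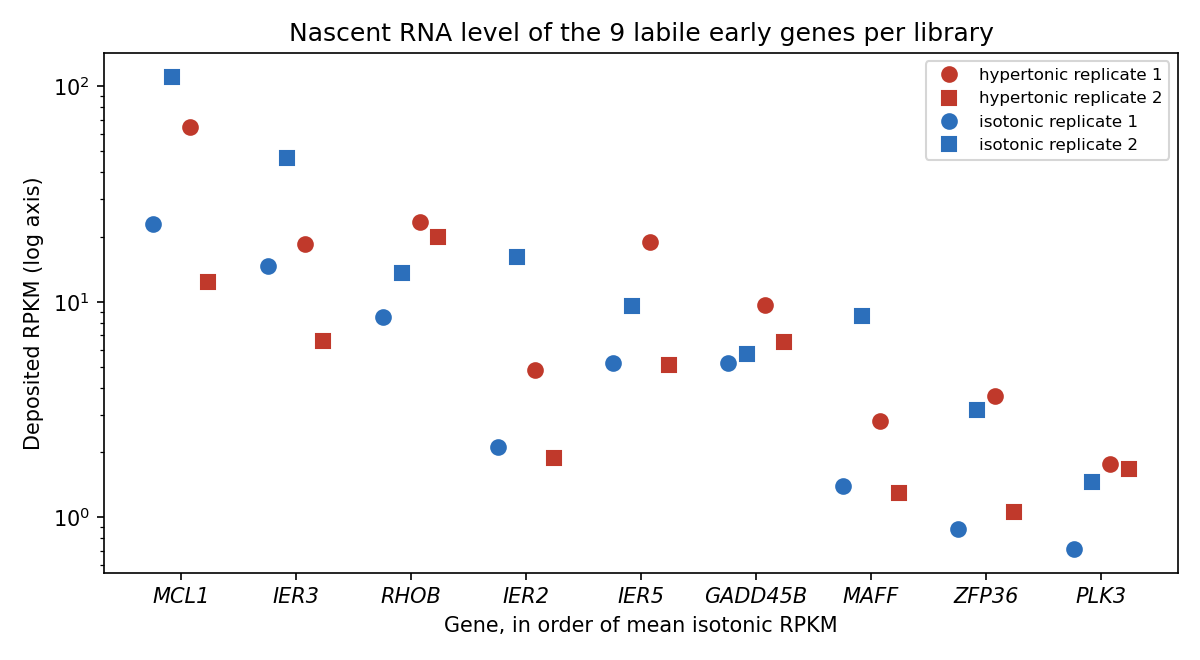
Deposited RPKM (log axis) of each gene in the 4 libraries, blue for isotonic and red for hypertonic, circles for replicate 1 and squares for replicate 2, with genes ordered by mean isotonic RPKM. MCL1 spans 12.3 to 111 RPKM, and for most genes the replicates of a group lie farther apart than the groups do, while both red points of RHOB, GADD45B and PLK3 lie above both blue ones.

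No member passed the test of hypertonic against isotonic libraries (edgeR quasi-likelihood test, Benjamini-Hochberg adjusted p of 0.544 to 0.993), and 0% of all 21238 genes did, with a lowest adjusted p of 0.192. At an unadjusted p under 0.05 there were again 0 members, against 8.89% of genes higher and 2.01% lower. DESeq2 called 0 members at an adjusted p under 0.05, against 3.44% of genes tested. Of the 9 fitted log2 fold changes 5 were positive and 4 negative, where 52.4% of all genes were positive. Their median was 0.29, against 0.04 over all genes and -0.05 over the protein-coding genes tested. Both hypertonic libraries lay above both isotonic ones in CPM for 1 member, RHOB, against 22.5% of genes. In RPKM this was so for 3 members, RHOB, GADD45B and PLK3, against 23.5%. In 0 members were both hypertonic libraries below both isotonic ones on either scale, against 17.5% of genes in CPM and 13.6% in RPKM. Counts of members called or separated were thus near or below those of all genes.

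The larger differences lay between replicates of 1 group. In all 9, isotonic replicate 2 lay above isotonic replicate 1, against 49.9% of genes, and in all 9 hypertonic replicate 2 lay below hypertonic replicate 1, against 46.8%. The isotonic gap was at least 2-fold in 7 of 9 members (7.46% of genes) and the hypertonic gap in 7 of 9 (18.2%). Both gaps were that large in 6 of 9 members, against 1.44% of all genes. The median gap of replicate 2 from replicate 1 was 1.8 on the log2 CPM scale in isotonic medium and -1.83 in hypertonic medium, where the medians of all genes were 0.00 and 0.11. Isotonic replicate 2 was the highest of the 4 libraries in 4 members (MCL1, IER3, IER2 and MAFF), against 17.1% of genes, and hypertonic replicate 1 in the other 5, against 33.7%. The isotonic gap exceeded the group difference in 7 members, and so did the hypertonic gap in 7. Each gap compares 1 library with 1 library and has no test. A cause for the gaps was not tested, and the labels name no batch.

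**Figure D2:**
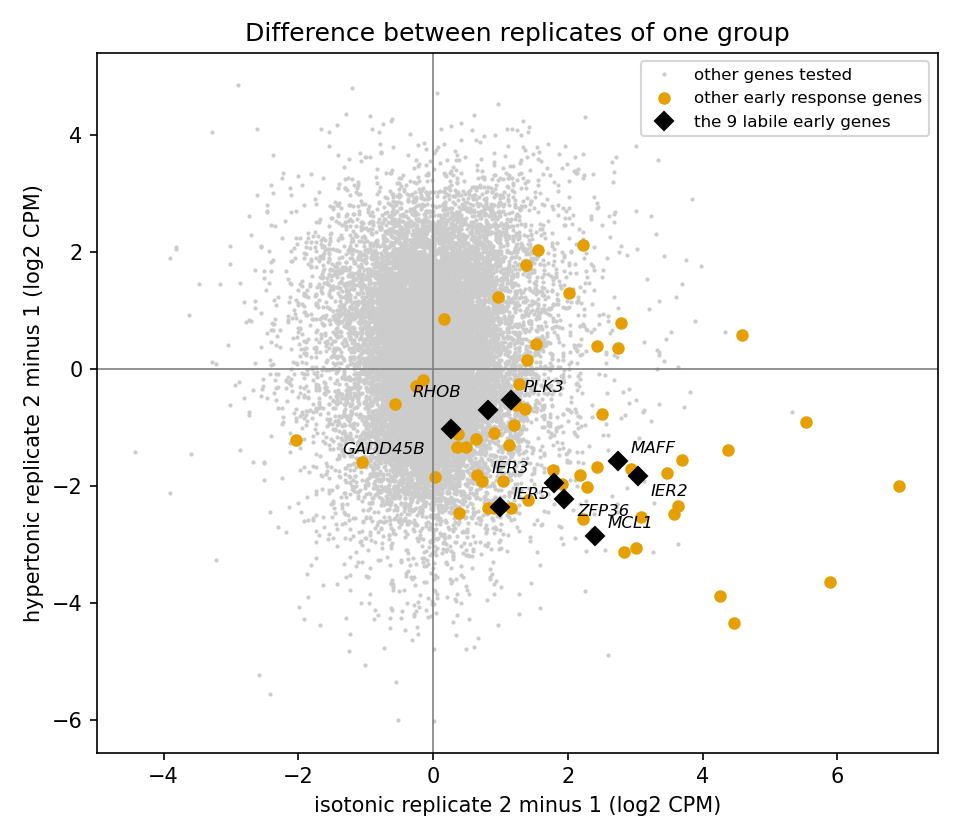
Difference between replicates on the log2 CPM scale, isotonic replicate 2 minus 1 (horizontal) against hypertonic replicate 2 minus 1 (vertical). Grey points are the other genes tested, orange points other early response genes and black diamonds the 9 genes described, all of which lie at lower right, from GADD45B at 0.26 and -1.04 to IER2 at 3.04 and -1.83.

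IER2 (ENSG00000160888, chr19:13150415-13154908, plus strand), a nuclear regulator of transcription, was at 32.0 CPM (replicate 1) and 8.96 CPM (replicate 2) under hypertonic conditions and at 11.7 and 97.0 CPM under isotonic conditions, an order kept below. Isotonic replicate 2 stood above the other 3 libraries and the groups overlapped. The log2 fold change was -1.41 ± 0.92 (SE, n = 2 per group; edgeR, adjusted p = 0.687). Its isotonic gap of 3.04 was the widest among the members. IER5 (ENSG00000162783, chr1:181088712-181092899, plus strand) is a single-exon gene whose product works with protein phosphatase 2A and promotes the activity of the heat shock factor HSF1. It measured 117 and 22.6 CPM under hypertonic against 26.8 and 53.7 CPM under isotonic conditions. Hypertonic replicate 1 was the highest library and hypertonic replicate 2 the lowest. The log2 fold change was 0.80 ± 0.71 (edgeR, adjusted p = 0.845). Without hypertonic replicate 2 it was 1.54 and passed (edgeR, adjusted p = 0.0203), and without hypertonic replicate 1 it was -0.86.

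The promoters of these 2 genes are shown as the 250 bases before RefSeq's start site, because IER2 had the widest isotonic gap and IER5 had hypertonic libraries at both ends of its range, a choice made after their values were seen. The letters are RefSeq's on GRCh38.p14, with motif matches in capitals.
IER2, chr19:13150161-13150410, plus strand: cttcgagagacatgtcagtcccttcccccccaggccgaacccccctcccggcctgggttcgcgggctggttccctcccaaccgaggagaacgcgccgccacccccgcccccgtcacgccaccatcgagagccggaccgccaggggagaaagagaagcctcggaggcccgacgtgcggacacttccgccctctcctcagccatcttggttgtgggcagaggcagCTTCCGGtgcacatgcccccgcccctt
IER5, chr1:181088450-181088699, plus strand: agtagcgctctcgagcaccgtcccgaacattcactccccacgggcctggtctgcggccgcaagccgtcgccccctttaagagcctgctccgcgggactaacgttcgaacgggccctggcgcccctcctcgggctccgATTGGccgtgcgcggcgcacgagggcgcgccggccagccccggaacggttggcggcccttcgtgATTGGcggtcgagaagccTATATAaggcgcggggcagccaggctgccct
RefSeq's table held windows for 7 of the 9 genes, with IER3 and MCL1 not among them. On both strands, 6 motifs were searched: the CArG box, by name, which binds serum response factor, TGACGTCA, the cAMP response element, TGANTCA, the AP-1 site, CCGGAAG, an ETS site, CCAAT, and TATANA. IER2 held CCGGAAG, read on the minus strand, which 8.52% of all windows of that length held. IER5 held CCAAT at 2 positions on the minus strand and TATANA, which 32.0% and 17.7% of windows held. The CArG box (1.16% of windows) and TGANTCA (6.57%) occurred in 0 of the 7. TATANA can match itself on the opposite strand, and the other matches did not overlap.

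MAFF (ENSG00000185022, chr22:38201882-38216511, plus strand), a small Maf protein that binds DNA without an activation domain of its own, measured 60.5 and 20.2 CPM under hypertonic against 25.1 and 168 CPM under isotonic conditions. As for IER2, isotonic replicate 2 stood highest and hypertonic replicate 1 second. The log2 fold change was -1.26 ± 0.82 (edgeR, adjusted p = 0.687). Of the 7 promoters it was the one with a full cAMP response element, a motif in 1.65% of all windows, 47 to 54 bases before 1 of the 2 start sites that RefSeq's table gives for MAFF. That start site lies inside the deposited gene entry, and so does the element, shown here in capitals.
MAFF, chr22:38201929-38201958, plus strand: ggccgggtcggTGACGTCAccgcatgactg
The opposite strand of MAFF also gave reads, with 8.32 and 7.19 CPM under hypertonic against 2.38 and 1.39 CPM under isotonic conditions. Both hypertonic libraries lay above both isotonic ones there, unlike on the sense strand of MAFF. Among sense entries 22.5% of genes tested did so in CPM, and the share among antisense entries is not given here. The opposite-strand gene TMEM184B ends 2779 bases beyond the end of MAFF and runs towards it, and measured 36.8 and 104 CPM against 76.6 and 81.7 CPM. Its part in the antisense reads was not tested.

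MCL1 (ENSG00000143384, chr1:150574553-150579738, minus strand), a BCL2 relative that blocks apoptosis and is degraded quickly, had the highest mean isotonic RPKM of the 9 genes. It measured 496 and 67.7 CPM under hypertonic against 146 and 771 CPM under isotonic conditions. The hypertonic replicates differed more from each other (-2.87 on the log2 scale) than those of any other member, and the groups overlapped. The log2 fold change was -0.70 ± 0.92 (edgeR, adjusted p = 0.932). IER3 (ENSG00000137331, chr6:30743199-30744554, minus strand), a stress-induced modulator of apoptosis and ERK signalling, measured 37.0 and 9.43 CPM against 24.1 and 84.3 CPM. It had the same order of libraries as MCL1, with isotonic replicate 2 highest and hypertonic replicate 2 lowest, and a log2 fold change of -1.22 ± 0.76 (edgeR, adjusted p = 0.658).

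GADD45B (ENSG00000099860, chr19:2476127-2478259, plus strand), which activates the kinase upstream of p38 and JNK, had the narrowest isotonic gap, 0.26 on the log2 scale. It measured 30.4 and 14.7 CPM under hypertonic against 13.6 and 16.3 CPM under isotonic conditions. Hypertonic replicate 1 stood apart from 3 libraries of like level, and the log2 fold change was 0.60 ± 0.57 (edgeR, adjusted p = 0.865). In RPKM the groups did not overlap, at 9.70 and 6.51 against 5.20 and 5.71. PLK3 (ENSG00000173846, chr1:44800225-44805990, plus strand), a polo-like kinase of stress responses, measured 14.9 and 10.3 CPM against 5.03 and 11.2 CPM. Isotonic replicate 1 was the lowest library, and the log2 fold change was 0.63 ± 0.64 (edgeR, adjusted p = 0.882). In RPKM the values were 1.76 and 1.68 against 0.713 and 1.46, again without overlap, so whether the groups of these 2 genes separate depends on the scaling.

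ZFP36 (ENSG00000128016, chr19:39406813-39409412, plus strand) encodes tristetraprolin, which binds AU-rich elements and brings in the CCR4-NOT deadenylase. It measured 13.9 and 2.91 CPM under hypertonic against 2.80 and 11 CPM under isotonic conditions. A high and a low library stood in each group, at nearly the same levels, and the log2 fold change was 0.29 ± 0.90 (edgeR, adjusted p = 0.993).

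RHOB (ENSG00000143878, chr2:20447074-20449445, plus strand), an endosomal small GTPase encoded by a single exon, was the member whose hypertonic libraries lay above the isotonic ones on both scales. It measured 81.7 and 50.1 CPM under hypertonic against 24.6 and 43.2 CPM under isotonic conditions, and 23.4 and 19.9 against 8.47 and 13.6 RPKM. Its log2 fold change was 0.96 ± 0.49 and did not pass (edgeR, unadjusted p = 0.0806, adjusted p = 0.544). Without hypertonic replicate 2 it was 1.27 (edgeR, adjusted p = 0.035), a setting in which 10.0% of genes were called higher and RHOB and IER5 were the 2 members among them. Its promoter and that of GADD45B are shown from the 3 members with non-overlapping groups in RPKM, a choice made after their values were seen. The window of PLK3, the other such member, held none of the 6 motifs and is not printed. Here too the letters are RefSeq's on GRCh38.p14, for the 250 bases before RefSeq's start site.
RHOB, chr2:20446824-20447073, plus strand: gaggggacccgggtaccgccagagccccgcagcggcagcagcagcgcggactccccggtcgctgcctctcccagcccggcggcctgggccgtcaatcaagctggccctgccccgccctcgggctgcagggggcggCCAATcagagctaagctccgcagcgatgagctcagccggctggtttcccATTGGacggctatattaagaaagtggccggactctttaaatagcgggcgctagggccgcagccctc
GADD45B, chr19:2475877-2476126, plus strand: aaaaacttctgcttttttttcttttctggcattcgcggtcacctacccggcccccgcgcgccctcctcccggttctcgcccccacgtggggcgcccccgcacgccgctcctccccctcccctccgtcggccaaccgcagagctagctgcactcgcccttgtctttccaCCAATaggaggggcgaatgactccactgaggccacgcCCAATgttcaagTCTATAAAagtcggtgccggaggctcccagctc
Capitals mark CCAAT on either strand and, in GADD45B, TATANA. RHOB, GADD45B and IER5 each held CCAAT at 2 positions, as did 9.53% of all windows at 2 or more. The matches are a description of the letters and show no binding.

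**Figure D3:**
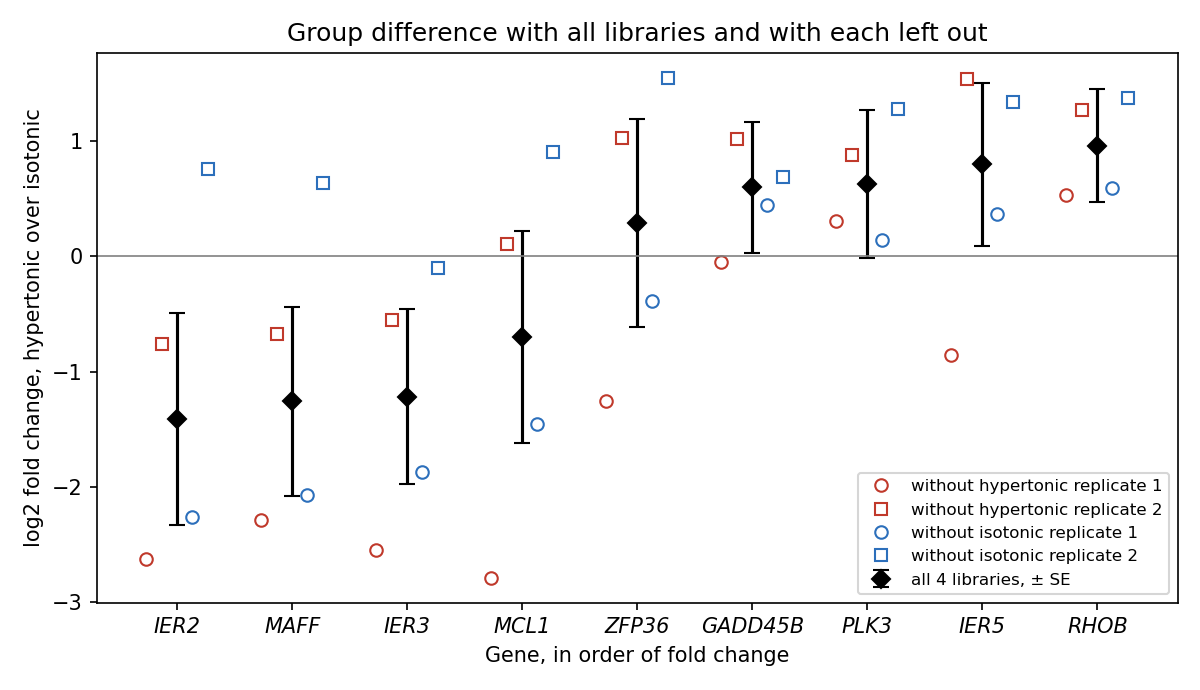
Log2 fold change of hypertonic over isotonic for each gene, with all 4 libraries (black diamonds, bars are ± SE from edgeR) and with 1 library left out (open symbols). IER2, MAFF and MCL1 lie below 0 with all libraries and above 0 without isotonic replicate 2, while RHOB and PLK3 stay above 0 and IER3 below 0 in all 5 fits.

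Leaving out 1 library turned the direction of 6 members. Without isotonic replicate 2 the log2 fold change was 0.76 for IER2, 0.64 for MAFF and 0.91 for MCL1, and without hypertonic replicate 2 it was 0.11 for MCL1. ZFP36 was at -1.26 without hypertonic replicate 1 and at -0.39 without isotonic replicate 1, and GADD45B was at -0.05 without hypertonic replicate 1. IER5 is given above. RHOB stayed at 0.53 to 1.38, PLK3 at 0.14 to 1.28 and IER3 at -2.55 to -0.10.

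The nearest same-strand gene downstream lay within 10 kb for 5 members, and the one after RHOB had hypertonic libraries well above the isotonic ones. AC023137.1 (ENSG00000228950, a lincRNA gene, chr2:20451042-20452947) starts 1596 bases beyond RHOB. It measured 14.2 and 7.03 CPM under hypertonic against 0.785 and 0.980 CPM under isotonic conditions, without overlap. The log2 fold change was 3.59 ± 0.74 (edgeR, unadjusted p = 0.000931, adjusted p = 0.192, DESeq2 adjusted p = 4.21e-05). In RPKM it reached 21.7 and 17.5% of RHOB in the hypertonic and 3.94 and 2.82% in the isotonic libraries. The edgeR result depended on the setting, with an adjusted p of 0.00236 without a low-count filter and 0.00109 without hypertonic replicate 2, against 0.0881, 1.0 and 0.804 without hypertonic replicate 1, isotonic replicate 1 and isotonic replicate 2. Its fold change stayed between 2.97 and 4.02 on the log2 scale in these 5 fits.

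Of the other 4 neighbours, BTBD19 had non-overlapping groups in CPM and 3 did not. As for AC023137.1, both hypertonic libraries of BTBD19 lay above both isotonic ones, which held for 22.5% of all genes. BTBD19, 2491 bases beyond PLK3, measured 18.1 and 18.6 CPM against 6.11 and 14.3 CPM (log2 fold change 0.85 ± 0.61, edgeR, adjusted p = 0.738), and stood at 124 to 185% of PLK3 in RPKM. ADAMTSL4-AS1 begins 2 bases beyond MCL1 and measured 86.5 and 72.1 CPM against 62.4 and 272 CPM (-1.08 ± 0.62, edgeR, adjusted p = 0.612). FLOT1, 465 bases beyond IER3, measured 17.7 and 92.5 CPM against 33.1 and 63.5 CPM (0.19 ± 0.71, edgeR, adjusted p = 0.993). In RPKM it reached 4.36 and 89.1% of IER3 in the hypertonic and 12.5 and 6.85% in the isotonic libraries. PLEKHG2, 3172 bases beyond ZFP36, measured 4.48 and 14.7 CPM against 4.61 and 9.75 CPM (0.42 ± 0.75, edgeR, adjusted p = 0.965). In RPKM it reached 5.27 and 82.9% of ZFP36 against 27.1 and 14.6%. As a percent of MCL1 in RPKM, ADAMTSL4-AS1 stood at 6.93 and 42.3% under hypertonic and at 17.0 and 14.0% under isotonic conditions. On this percent scale the hypertonic replicates lay on both sides of the isotonic ones after MCL1, IER3 and ZFP36, with hypertonic replicate 2 highest. The nearest genes after IER5, GADD45B, MAFF and IER2 lay 14808 to 576851 bases away.

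**Figure D4:**
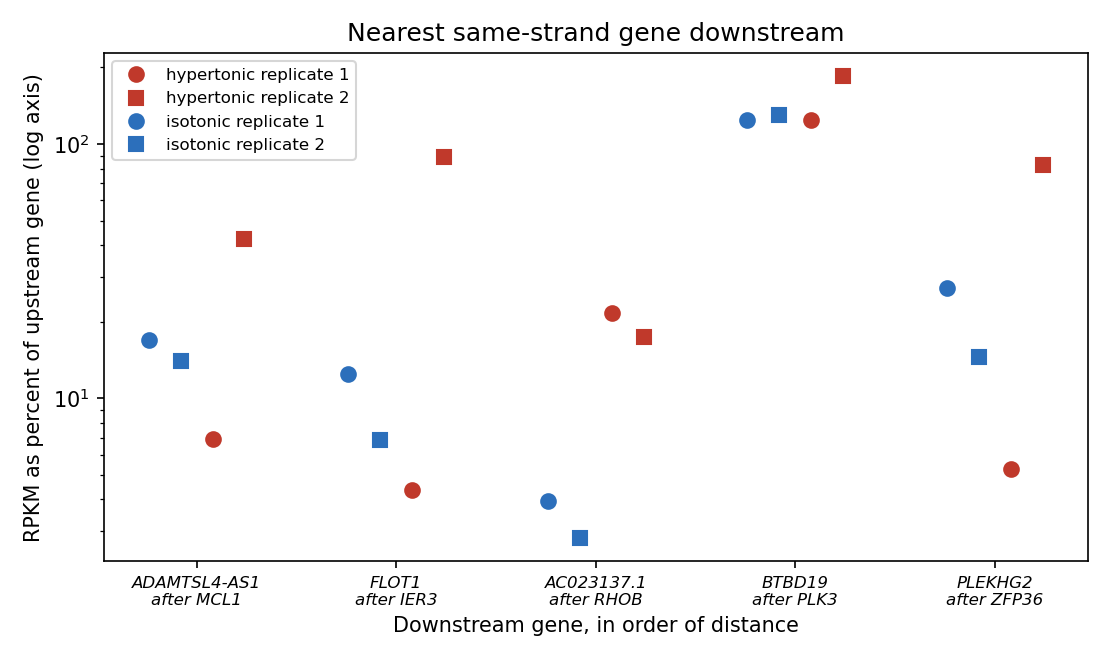
RPKM of the nearest same-strand gene downstream as a percent of the RPKM of the upstream gene (log axis), for the 5 pairs within 10 kb, blue for isotonic and red for hypertonic libraries. The 2 hypertonic libraries lie at 21.7 and 17.5% for AC023137.1 after RHOB, above 3.94 and 2.82% in the isotonic ones, while for ADAMTSL4-AS1, FLOT1 and PLEKHG2 the red points lie on both sides of the blue ones.

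Reads on the opposite strand were few for the other members. GADD45B and IER3 had 0 antisense counts in every library and RHOB at most 1, so strand was kept in all 4 libraries at these genes. IER2 had antisense counts of 19 to 64, or 2.82 to 8.45% of its sense counts. PLK3 had 7 to 14, MCL1 2 to 12 and ZFP36 0 to 3. For IER5 the antisense counts were 3 and 7 under hypertonic against 0 and 0 under isotonic conditions, without overlap as for MAFF. PLK3, IER2 and IER3 overlap annotated genes on the opposite strand by 78, 1098 and 394 bases, and those genes had at most 3 counts in a library. The antisense entries of these members are shorter than the sense entries, at 5688, 3396 and 962 against 5766, 4494 and 1356 bases. The antisense counts and percentages given here are not corrected for length.

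Other early response genes showed the gap between replicates as well. Of a list of 60, which holds transcription factors such as FOS, EGR1 and MYC, the DUSP phosphatases and cytokines, 57 were tested. Isotonic replicate 2 exceeded replicate 1 by at least 2-fold in 39 of them, against 7.46% of all genes. Hypertonic replicate 2 lay under replicate 1 by at least 2-fold in 36, against 18.2%. Both gaps were 2-fold or more in 23, or 40.4%, against 1.44% of all genes. In the group comparison 42 had a negative and 15 a positive log2 fold change, where 52.4% of all genes were positive. The median was -1.02 and became 0.49 without isotonic replicate 2. No gene of the list passed in edgeR (0 of 57), with 2 higher and 10 lower at an unadjusted p under 0.05, and DESeq2 called 4, PHLDA1 and SNAI1 higher and CXCL8 and KLF6 lower. In edgeR the list's calls changed with the setting, to 2 higher and 12 lower without the low-count filter, 5 higher and 4 lower without hypertonic replicate 2, and 0 higher and 2 lower without isotonic replicate 1. PHLDA1, a regulator of cell survival, measured 70.3 and 30.6 CPM against 5.59 and 8.77 CPM (2.82 ± 0.60, edgeR, adjusted p = 0.192). SNAI1, a repressor of epithelial genes, measured 92.3 and 26.1 against 8.34 and 13.1 CPM (2.47 ± 0.66, edgeR, adjusted p = 0.228). CXCL8, a chemokine, measured 1.27 and 0.314 against 2.99 and 33.9 CPM (-4.54 ± 1.21, edgeR, adjusted p = 0.224).

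Among family relatives of the 9 genes, isotonic replicate 2 exceeded replicate 1 by at least 2-fold in 2 of the 15 tested, against 7.46% of all genes. Of 18 relatives 15 were tested, with 5 positive and 10 negative fold changes, where 52.4% of all genes were positive. Their median was -0.33, and 0 passed in edgeR or DESeq2. At an unadjusted p under 0.05 in edgeR, 1 relative was higher and 1 lower, against 8.89% and 2.01% of all genes. The median isotonic gap of the relatives was -0.03 and their median hypertonic gap 0.59. The 2 relatives with the 2-fold isotonic gap were GADD45A (1.2) and MAFK (2.04). Their hypertonic gaps were -1.58 and 1.99, so MAFK ran against the members there. PLK1, a mitotic kinase, had an isotonic gap of -1.9. Hypertonic replicate 2 lay under replicate 1 by at least 2-fold in 4 of the 15, against 18.2% of all genes. Besides GADD45A, those were PLK2 (-1.79), MAF (-1.15) and ZFP36L2 (-1.08). ZFP36L1 and ZFP36L2, which like ZFP36 bind AU-rich elements, had isotonic gaps of 0.36 and -0.14, and RHOA and RHOC had -0.24 and -0.03. IER5L, a paralogue of IER5, measured 2.32 and 2.16 CPM under hypertonic against 0.589 and 0.361 CPM under isotonic conditions (2.20 ± 0.77, edgeR, unadjusted p = 0.0184, adjusted p = 0.338). PLK4, the kinase of centriole duplication, measured 20.2 and 35.2 against 73.2 and 62.0 CPM (-1.29 ± 0.47, edgeR, adjusted p = 0.358). GADD45A measured 61.1 and 20.4 against 54.5 and 126 CPM (-1.15 ± 0.61, edgeR, adjusted p = 0.574). The difference between relatives and members was not tested.

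Lists of genes that act upstream of or on these products had median isotonic gaps near 0. Over all genes tested, 52.4% of log2 fold changes were positive. Of 23 kinases and transcription factors that signal to early genes, 19 were negative with a median of -0.24 and an isotonic gap of 0.07. In that list SRF, which drives many early genes, measured 17.7 and 11.3 against 16.7 and 52.5 CPM (-1.25 ± 0.64, edgeR, adjusted p = 0.548), with NFKB1 at -0.80 ± 0.45 and MAPK8 at -0.58 ± 0.41. Of 13 genes of AU-rich element decay 12 were negative, with a median of -0.35 and an isotonic gap of -0.10. CNOT7, a deadenylase subunit, stood at -1.03 ± 0.43, TIA1 at -0.85 ± 0.43 and HNRNPD at -0.90 ± 0.50. Of 11 partners and turnover factors of MCL1 9 were negative, with a median of -0.21 and an isotonic gap of -0.09. PMAIP1, whose product NOXA binds MCL1, measured 112 and 32.6 against 40.2 and 69.6 CPM (0.40 ± 0.60), with BAX at -0.39 ± 0.70 and TRIM17 at -0.83 ± 1.11. In these 3 lists 0 genes passed in edgeR or DESeq2. CNOT7 was the 1 gene among them with an unadjusted p under 0.05 in edgeR (adjusted p = 0.425).

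The median pattern of the 9 genes, centred on the mean of the 4 libraries, was 0.84 and -0.95 for the hypertonic pair and -0.83 and 0.94 for the isotonic pair on the log2 CPM scale, replicate 1 first. Among 10618 other protein-coding genes with a mean of at least 5 CPM, the 5 nearest to it over the 4 libraries were DNAJB1 (distance 0.261), EMP1 (0.373), TIPARP (0.418), NAMPT (0.424) and TNC (0.445). DNAJB1, a co-chaperone of HSP70, measured 53.1 and 16.3 CPM under hypertonic against 17.0 and 47.8 CPM under isotonic conditions. Of the members themselves ZFP36 lay closest, at 0.458, and RHOB farthest, at 1.49. With 4 libraries such a distance describes these libraries only.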

How the data were processed

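Bru-seq libraries of 2 hypertonic and 2 isotonic samples were analysed, grouped by their titles. Per the submitters' processing notes, bedtools 2.16.2, STAR 2.5.3a, Bowtie2 2.3.3 and CASAVA 1.8.2 were used, with GRCh38. Roles and the annotation release are not given in the sources used here. The authors deposited an expected count and an RPKM value per gene and strand in headerless tables, both units read from the values: RPKM is the count divided by entry length and 1 constant per library. Sense strand and gene type came from GENCODE 29. Counts were rounded and tested with edgeR 4.0.16 (R 4.3.3): default expression filter, TMM factors of 0.887 to 1.22, quasi-likelihood test, Benjamini-Hochberg adjustment over 21238 genes, threshold 0.05. The SE is the fold change divided by the square root of F. Log2 CPM used a prior count of 2. DESeq2 1.42.0 and limma 3.58.1 were alternatives, limma also on log2(deposited RPKM + 0.1 or 1). The edgeR fit was tested on simulated data. Depth was 23048409 to 44888307 counts of reads, not molecules. Named genes were the 9 members, the 3 genes with the smallest p in each other list, the 5 nearest patterns, and neighbours. The further relatives named for their replicate gaps, and KLF6, called by DESeq2, fall outside this rule. Members and lists were chosen with earlier results of these data known. Figures used matplotlib 3.10.9.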

Additional observations from a re-analysis of the deposited data

How the results depend on the processing

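Across 13 alternative settings, the 9 members kept their direction under every scaling, filter and tool and with the replicate number as a block, and 0 of them were called in these 9 settings. The directions changed when 1 library was left out. Without 1 library, the members called ranged from 0 to 2, the genes called from 0 to 4918, the median of the members from -1.26 to 0.91 and that of other early response genes from -1.66 to 0.49. Over the same 4 fits the log2 fold change ran from -2.63 to 0.76 for IER2, -2.29 to 0.64 for MAFF, -2.79 to 0.91 for MCL1, -1.26 to 1.55 for ZFP36, -0.86 to 1.54 for IER5 and -0.05 to 1.02 for GADD45B. Where 1 library was left in a group, it was assumed to vary like the other group. Over all genes edgeR called 916 genes without a low-count filter and 384 with the replicate block, and DESeq2 called 731, against 0 in the edgeR fit reported. The cause of these differences was not tested. Same-numbered replicates did not deviate together over all genes (Pearson r of 0.0247). Whether they were made together is not given, and this correlation cannot decide it. With the replicate block the median of the members was 0.21. The same block called 2 other early response genes higher and 1 lower, and AC023137.1 passed with it (log2 fold change 3.52, edgeR adjusted p = 0.0159). The median of all genes was 0.04. With 2 libraries in each group, a standard error of 0.49 to 0.92 limits what could be called.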
